A study of Mus musculus with 32 samples.

Results

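Allele-specific RNA counts from the preoptic area (POA) were set against those from the medial prefrontal cortex (PFC) of adult mice, to ask which genes take a different share of their RNA from the maternal and the paternal copy across these regions. Single nucleotide polymorphisms (SNPs) of UCSC transcripts were kept where they were listed in both regions' tables and lay on autosomes 1 to 19, which left 200845 SNPs in 12563 genes. Of these genes 10823 reached a mean of 20 reads per pool and were tested, with 108274 SNPs behind them. The 16 libraries used, of 32 in the series, form 8 pools.

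The mice were F1 hybrids of the wild-derived strain CAST/EiJ and the laboratory strain C57BL/6J (B6), 5 weeks old and with no treatment named. F1i mice had a CAST mother and a B6 father, and F1r mice had a B6 mother and a CAST father. Each pool held RNA of one region, cross and sex, combined from 8 to 10 individuals before sequencing, so that no value belongs to a single mouse. The authors summed the technical replicates of a pool, which leaves 4 pools per region and 2 per region and cross (male and female). The male and the female pool served as replicates, and p-values therefore rest on the spread between these pools. In the main test that spread was estimated mostly from all genes together and less from the gene itself (22.7 prior against 4 residual degrees of freedom).

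An imprinted gene is expressed mainly from the copy inherited from 1 parent, through DNA methylation and other marks that the germ line lays down. In the brain many imprinted genes are biased by tissue, promoter or transcript end rather than silent on 1 copy throughout. The POA, at the front of the hypothalamus, governs mating, parental behaviour and body temperature and is rich in inhibitory neurons, whereas the PFC is layered cortex rich in excitatory neurons.

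Reads are counted for a parent only where they cross a base that differs between the strains, so the bases themselves define the measurement. The sequences below were read from the mm9 genome around coding SNPs of the genes on which the comparison turns, 14 bases either side, in transcript orientation, with the SNP base in capitals. The name gives the B6 base, its position counted from 1 at the start of the UCSC transcript and the CAST base.
Begain T1424C: gctgccggccgcgcTgcctcgccctgcaa
Herc3 T422C: ctcagtgaccggggTcagctgttttcttg
Copg2 T1947C: ctgggacccttgttTaagtcttctgagcc
Ppp1r9a C3393T: acatcatcccaggaCcgggcactggttaa
Rasgrf1 C2506G: ctggaactggcttcCcttgggtgcagctc
Inpp5f C1367T: gttaacttggtagaCcaggctggaaggga
Inpp5f C2894T: gggccaatagattaCattctcccaagctg
Gnas A917G: gagcgcaaggaggaAaacaggcagccccg
The Begain window is chr12:110271666-110271694 on the minus strand, in coding exon 7. The Herc3 window is chr6:58804935-58804963 on the plus strand, in coding exon 3, and the Copg2 window is chr6:30760410-30760438 on the minus strand, in coding exon 19. The Ppp1r9a window, chr6:5109564-5109592, lies in coding exon 16, and the Rasgrf1 window, chr9:89889690-89889718, in coding exon 15, both on the plus strand. The Inpp5f windows, chr7:135818818-135818846 in coding exon 10 and chr7:135838090-135838118 in coding exon 20, are on the plus strand and fall on either side of a change in parental bias described further on. The Gnas window, chr2:174110817-174110845 on the plus strand, lies in coding exon 2 of the Gnas transcript on which the SNP was placed. It stands near the start of the gene's range (chr2:174109821-174172245), and which Gnas transcripts its reads come from was not tested.

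The pools held 3385306 to 7234528 informative reads in the POA and 4795668 to 7202519 in the PFC. Tissue markers moved as the region labels say: the 13 POA and hypothalamic markers with reads, of 14 listed, summed to 4237 to 4668 reads per 1000000 in POA pools and 691 to 740 in PFC pools, and 8 cortical markers of 11 summed to 880 to 1016 in POA pools and 9825 to 13835 in PFC pools. The POA pools also held more oligodendrocyte RNA (3 markers of 5, 5338 to 5952 against 951 to 3298 reads per 1000000 in the PFC) and striatal RNA (4 of 5, 693 to 919 against 168 to 197). Choroid plexus markers (3 of 4) summed to 73.1 to 84.1 against 0, but none of them was among the genes tested. Of the POA markers 6 were tested and 5 were higher in the POA, and of the cortical markers 5 were tested and 4 were lower. The untested markers may have SNPs listed in 1 region only, so a low sum is not a measured absence of their RNA. In bulk tissue, fewer cells of a type and less RNA per cell cannot be told apart, and the part of cell makeup in the differences below was not tested. Maternal reads made up 49.7 to 52.0% of all informative reads in POA pools and 49.9 to 55.4% in PFC pools, with the lowest share in each region in F1i. Mitochondrial Atpase6, which the tables place on chromosome 1, was 98.2 to 99.9% maternal in all 8 pools. It had 77105 to 141690 reads per POA pool and 242270 to 446220 per PFC pool. These reads are part of the informative reads above and raise their maternal share, more in the PFC than in the POA. The shares were not recomputed without this gene.

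For each gene the maternal share is the CAST share of informative reads in F1i and the B6 share in F1r. The regional difference is the POA minus PFC change in log2 maternal:paternal ratio, added over the F1i and the F1r cross, so that a positive value means more maternal RNA in the POA, and it was tested on the CAST and B6 counts of the 8 pools with edgeR's quasi-likelihood test. The difference passed an adjusted p of 0.05 for 31 gene symbols (0.286% of 10823 tested). Of these, 10 were more maternal in the POA (0.0924%) and 21 more paternal (0.194%). Symbols that share SNPs reduce the 31 to 28 groups. The maternal share moved the same way in all 4 POA against PFC pairs of like cross and sex for 21 of the 31, where 1020 of all genes tested did so (9.42%). The count rests on few pools: it was 11 to 92 when 1 pool was left out, 9 by DESeq2 and 2 when X-linked genes entered the same fit.

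**Figure D1:**
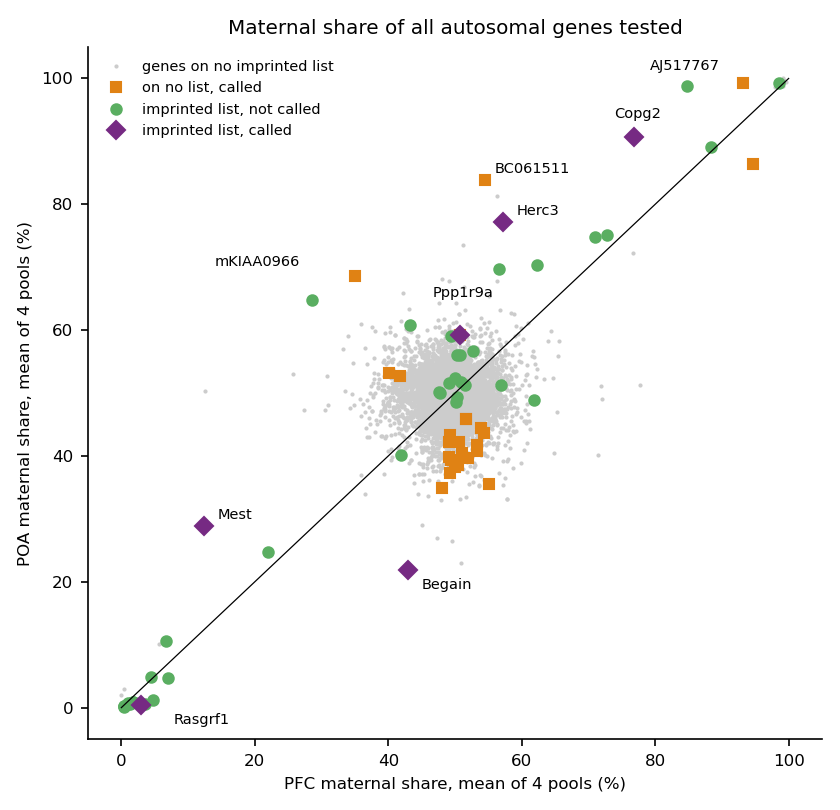
Mean maternal share of informative reads (%) in the POA (vertical axis, 4 pools) against the PFC (horizontal axis, 4 pools), 1 point per tested gene, with genes called different between regions and members of the imprinted lists marked. Begain lies at 21.8% in the POA and 43.0% in the PFC, and Herc3 at 77.3% in the POA and 57.2% in the PFC, both away from the diagonal along which most genes sit.

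Begain, the gene of a protein tied to the postsynaptic density, had the smallest adjusted p of the 31. In the POA its maternal share was 16.5 and 18.5% in F1i males and females and 26.3 and 26.0% in F1r males and females, against 40.2, 41.7, 43.9 and 46.2% in the same order in the PFC. Every POA pool lay below every PFC pool, so both regions favoured the paternal copy and the POA did so more. The mean was 21.8 ± 5.04% in the POA and 43.0 ± 2.61% in the PFC (SD, n = 4 pools each). The regional difference was -2.91 on the log2 scale (SE 0.18, edgeR adjusted p = 3.02e-11). The exact two-sided permutation p of the shares was 0.0286, the smallest that 4 against 4 pools can give. Any gene without overlap of its pools takes this value, which held for 132 of all genes tested (1.22%), so it adds no separate evidence. The gene lies at chr12:110270397-110291589 (mm9). All 6 of its SNPs, spread over a coding exon near the start, a late coding exon and the 3′ UTR, were lower in the POA, at 19.7 to 24.1% against 36.7 to 44.5% in the PFC. Here and for the genes below, the SNPs hold the same reads that were summed for the test, so their agreement is not separate evidence. Its total level, informative reads of both alleles, was lower in the POA as well, where 3012 of all genes (27.8%) had a higher and 3199 (29.6%) a lower total level than in the PFC, with a log2 POA over PFC of -0.65 (SE 0.14, edgeR adjusted p = 0.00153).

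Herc3, which encodes a ubiquitin ligase of the HECT family, went the other way. Its maternal share in POA pools was 74.4 and 76.0% in F1i males and females and 79.4 and 79.2% in F1r males and females, against 50.1, 58.4, 60.7 and 59.8% in the PFC. The POA was maternally biased in each pool and no PFC pool reached the lowest POA value. The means were 77.3 ± 2.48% in the POA and 57.2 ± 4.87% in the PFC, with a log2 regional difference of 2.69 (SE 0.18, edgeR adjusted p = 1.40e-10). All 22 SNPs of the long transcript, from coding exon 3 to the 3′ UTR in exon 25, were higher in the POA, at 70.3 to 82.4% against 50.4 to 67.2%. Total Herc3 reads were lower in the POA (log2 -0.98, SE 0.09, edgeR adjusted p = 2.63e-06).

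Within the long Herc3 gene (chr6:58781459-58870392, plus strand) lies the paternally expressed Nap1l5, a nucleosome assembly protein gene at chr6:58855228-58857120 on the minus strand. A shorter Herc3 transcript ends just ahead of Nap1l5, and the SNPs of its own last exon did not follow the long transcript. At its position 2969 the maternal share was 2.94% of 34 reads in the POA and 16.7% of 12 reads in the PFC, and at position 3110 it was 6.82% of 44 reads in the POA and 8.33% of 12 in the PFC. SNP 2810, listed in the POA only, was 1.23% maternal in 81 reads. The short end was thus paternal in both regions, at low depth, while the exons it shares with the long transcript were maternal. Nap1l5 itself was 0.641 ± 0.759% maternal in the POA and 1.28 ± 1.46% in the PFC, although its total level was higher in the POA by 2.57 on the log2 scale (SE 0.14, edgeR adjusted p = 2.24e-08).

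**Figure D2:**
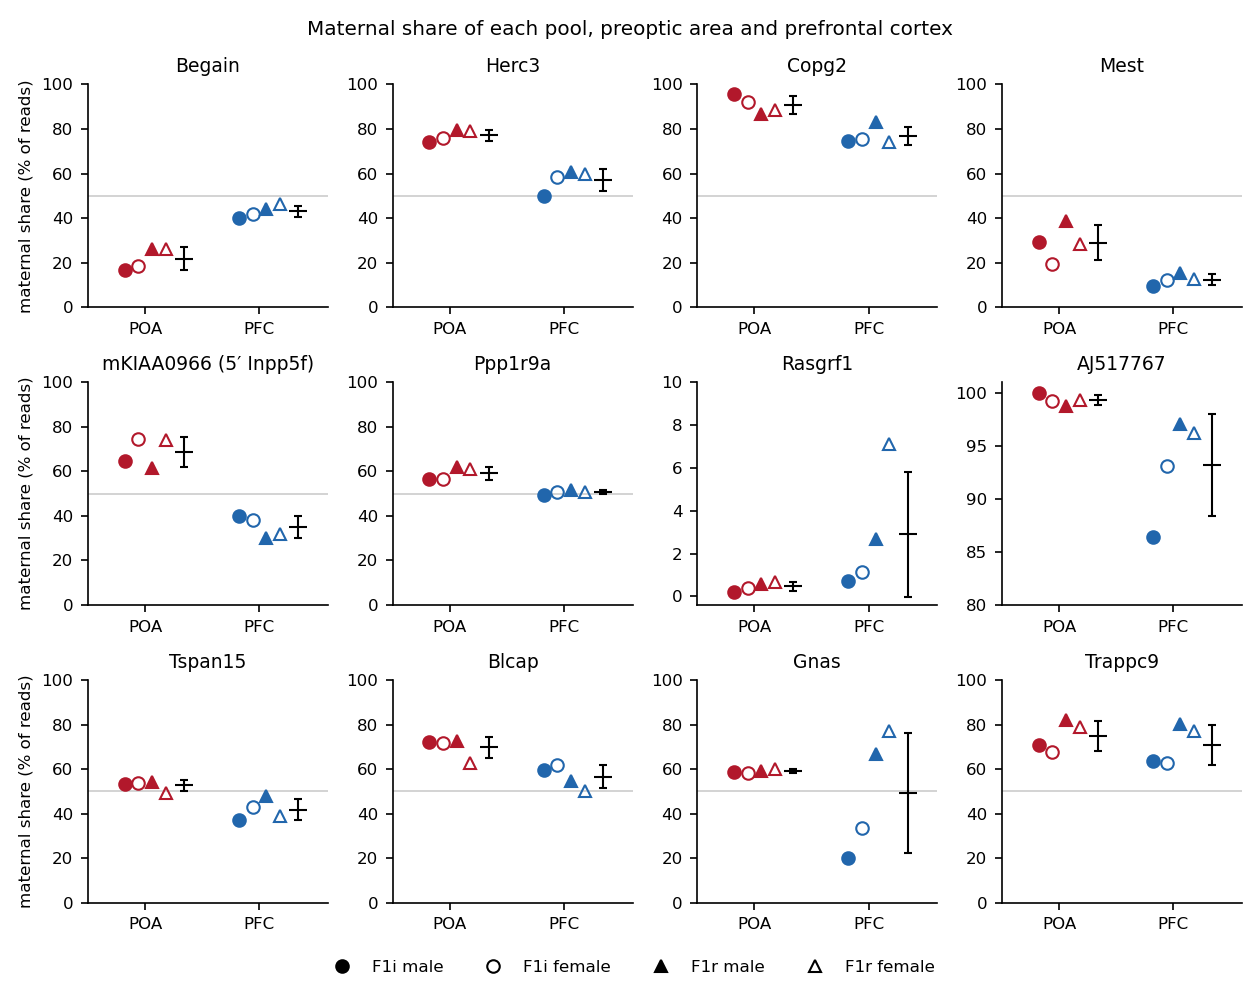
Maternal share (%) of each pool for genes named in the text, 1 panel per gene, POA left of PFC, with bars for the mean ± SD of 4 pools, circles for F1i, triangles for F1r, filled symbols for males and open symbols for females. Rasgrf1 and AJ517767 have axes of their own. In Begain and Herc3 the 4 POA pools stand clear of the 4 PFC pools, whereas in Gnas the PFC pools run between 20.1 and 77.2% while the POA pools stay between 58.2 and 60.1%.

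The neighbours Copg2 and Mest, which meet tail to tail on chromosome 6, both held more maternal RNA in the POA. Copg2 encodes a coat protein of vesicles that return from the Golgi. Its maternal share was 95.6 and 92.2% in F1i males and females and 86.6 and 88.6% in F1r males and females of the POA, against 74.8, 75.6, 83 and 74.1% in the PFC. The groups did not overlap, although the PFC F1r male pool came near the POA range. The log2 difference was 3.16 (SE 0.40, edgeR adjusted p = 4.15e-05), with 90.7 ± 4.01% in the POA and 76.9 ± 4.16% in the PFC. All 5 SNPs, in coding exons 3 to 19, were higher in the POA. The Copg2 total did not pass the test between regions (log2 -0.01, SE 0.13, edgeR adjusted p = 0.965).

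Mest, a paternally expressed gene of the alpha/beta hydrolase family, was summed over 3 SNPs with 48 to 102 reads per POA pool and 117 to 182 per PFC pool. The maternal share was 29.2, 19.4, 38.7 and 28.4% in POA pools (F1i male, F1i female, F1r male, F1r female), against 9.49, 12.1, 15.4 and 12.5% in PFC pools. All POA pools lay above all PFC pools, and the log2 difference was 2.85 (SE 0.56, edgeR adjusted p = 0.0143). This change sat at the end of the gene. SNP 76 in the 5′ UTR gave 0 maternal of 63 reads in the POA, which allows a share of up to 4.76%, and 0 of 28 in the PFC, which allows up to 10.7%. SNPs 1676 and 1920 in the 3′ UTR gave 34 and 35.4% in the POA, against 12.9 and 12.8% in the PFC. Both lie inside the annotated overlap of Mest (chr6:30673547-30698457, plus strand) with the end of Copg2 (chr6:30697554-30846794, minus strand), and since the protocol is not stated to keep strand, reads of either gene there cannot be told apart. The total of these Mest reads was lower in the POA (log2 -1.07, SE 0.14, edgeR adjusted p = 3.95e-05), and the regional call was lost with X-linked genes included, by DESeq2, and without the F1i male, F1i female or F1r female pool of the PFC or either F1i pool of the POA (log2 2.55 to 3.32, edgeR adjusted p = 0.0599 to 0.188).

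Ppp1r9a encodes neurabin, a scaffold that brings protein phosphatase to actin in dendritic spines. It was 56.6 and 56.8% maternal in F1i and 62.2 and 61.2% maternal in F1r POA pools, against 49.6, 50.7, 51.8 and 50.7% in PFC pools. The POA pools were all above the even share and above the PFC pools, which stood close to 50%. The difference was small, 0.99 on the log2 scale (SE 0.13, edgeR adjusted p = 7.68e-05). The POA was the higher at 42 of 43 SNPs, which hold the same reads that were summed for the test and are not replicates. The symbol Neurabin, called as well, carries identical counts at 42 of those SNPs and is no separate result. Within the POA alone the maternal bias of Ppp1r9a passed the test (edgeR adjusted p = 3.36e-09), whereas in the PFC it did not (edgeR adjusted p = 0.949). The regional call was lost with the deepest SNP alone, with X-linked genes included and by DESeq2.

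Rasgrf1, a guanine nucleotide exchange factor that activates Ras at synapses, was almost wholly paternal in both regions. The maternal share was 0.204, 0.377, 0.602 and 0.682% in POA pools and 0.704, 1.13, 2.70 and 7.10% in PFC pools. No POA pool reached the lowest PFC pool, and the PFC F1r female pool stood apart at the top. The log2 difference was -4.57 (SE 0.67, edgeR adjusted p = 3.20e-04), and all 12 SNPs were lower in the POA, at 0.107 to 1.05% against 1.92 to 4.69%. Other paternally expressed genes in that same PFC F1r female pool were 16.1% (Impact), 13.6% (Plagl1), 4.73% (Zrsr1) and 3.26% (Ndn) maternal, each its highest PFC pool, and 1.24% (Peg3), 1.55% (Peg13), 0.663% (Snrpn) and 1.52% (Nap1l5). Without this pool the Rasgrf1 difference kept its direction, and the part of the pool in it was not tested further. Rasgrf1 had 1965 to 4691 reads per POA pool and 1988 to 3183 per PFC pool, so the POA shares rest on few maternal reads. The Rasgrf1 call was lost without the PFC F1i female pool (log2 -4.13, edgeR adjusted p = 0.164), with robust estimation, with the deepest SNP alone and with X-linked genes included.

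**Figure D3:**
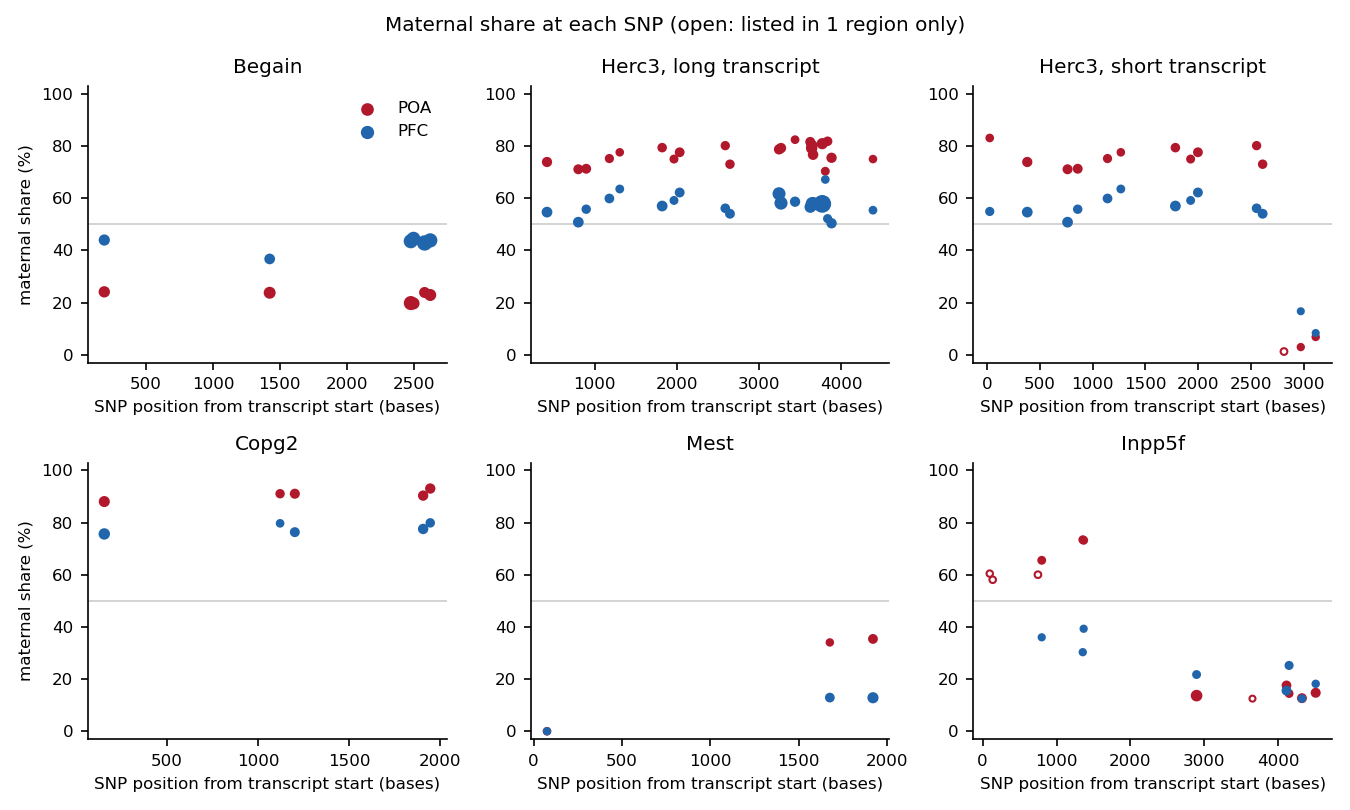
Maternal share (%) at each SNP against its position in the transcript (bases from the transcript start) for genes with several SNPs, POA and PFC in separate colours, with point area growing with reads and open points for SNPs listed in 1 region. At SNP 76 of Mest the POA point lies under the PFC point at 0%. Inpp5f changes between SNPs 1367 and 2894, where POA shares are 73.2 and 13.7%.

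Inpp5f encodes an inositol phosphatase, and a paternally expressed transcript from its 3′ part is known in mouse brain. Over its 8 common SNPs the gene was 24.7 ± 2.63% maternal in the POA and 22.0 ± 4.56% in the PFC and did not pass the test (log2 0.54, SE 0.38, edgeR adjusted p = 0.943). The sum hid opposite parts. At the 5 SNPs from position 2894 to the end, the maternal share was 12.7 to 17.6% in the POA and 12.5 to 25.2% in the PFC. At positions 800, 1355 and 1367 it was 65.5 to 73.4% in the POA and 30.3 to 39.3% in the PFC. These 3 SNPs are those of mKIAA0966, a RefSeq synonym of Inpp5f that the tables list as a gene of its own. Its pools were 64.4, 74.7, 61.5 and 73.9% maternal in the POA, against 40, 38.1, 30.0 and 32.0% in the PFC, without overlap, on 39 to 92 reads per POA pool and 20 to 25 per PFC pool. The log2 difference was 4.24 (SE 0.79, edgeR adjusted p = 0.00749). The total of these reads was higher in the POA by 1.43 (log2, SE 0.21, edgeR adjusted p = 1.05e-04). Of 21 alternatives that gave a value, 9 lost the call with the direction kept, among them each PFC pool left out and either POA female pool left out (log2 3.72 to 4.32, edgeR adjusted p = 0.0572 to 0.147).

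AJ517767, a chromosome 12 entry without a gene name in the annotations used here, was 100, 99.2, 98.8 and 99.3% maternal in the POA, against 86.4, 93.1, 97.1 and 96.2% in the PFC. The POA pools were all higher, and the log2 difference was 6.12 (SE 0.93, edgeR adjusted p = 5.49e-04). Both regions were strongly maternal, and the PFC F1i pools had the lowest shares. The difference was 9.61 without the POA F1i female pool (edgeR adjusted p = 0.00988). BC061511, a chromosome 16 entry likewise without a gene name here, was 83.9 ± 7.85% maternal in the POA and 54.5 ± 24.8% in the PFC, with 31 and 36.8% in PFC F1i and 82.9 and 67.3% in PFC F1r pools. The PFC F1r male pool exceeded 2 POA pools, so these groups overlapped (log2 4.56, SE 0.70, edgeR adjusted p = 5.79e-04). Both entries lost the call without the PFC F1r female pool (log2 5.88 and edgeR adjusted p = 0.0668 for AJ517767, 3.80 and 0.172 for BC061511) and with X-linked genes included, and BC061511 also with the deepest SNP alone. Tspan15, a tetraspanin that escorts the sheddase ADAM10, was near even in the POA (52.7 ± 2.43%) and paternal in the PFC (41.8 ± 4.79%), with no overlap, a log2 difference of 1.30 (SE 0.29, edgeR adjusted p = 0.0412) and all 15 SNPs higher in the POA. Tspan15 was not called with SNPs at least 36 bases apart or with the deepest SNP alone. It lost the call in 13 of 23 alternatives, 6 of them without 1 pool (edgeR adjusted p = 0.0503 to 0.546).

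The lists of imprinted genes held 74 names, in 3 sets (maternal, paternal, and genes whose parental bias depends on transcript). For 16 no SNP was listed, for 7 none was listed in both regions, and 6 were below the read minimum, which left 45 tested. The regional difference was called for 6 of the 45 (31 of all genes, 0.286%), with Herc3, Copg2, Ppp1r9a and Mest more maternal and Begain and Rasgrf1 more paternal in the POA. At an unadjusted p of 0.05, 16 of the 45 and 629 of all genes (5.81%) passed. The median absolute log2 difference was 0.81 over the 45 and 0.24 over all genes tested. The log2 scale stretches small differences where 1 copy is almost silent. Thus the 17 paternal genes tested had a median absolute log2 difference of 1.30 but a median share difference of -0.52 percentage points. The median signed share difference was 0.72 points over the 45 and 0.37 over all genes. The log2 medians therefore do not show that listed genes differed more in share, and absolute share differences were not compared.

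Within the POA, 12 of the 45 were called maternal (28 of all genes, 0.259%) and 19 paternal (103 of all, 0.952%). Within the PFC, 7 were called maternal (18 of all, 0.166%) and 18 paternal (37 of all, 0.342%). A call here needed an adjusted p under 0.05 and both crosses on the same side of 50%. The same call was made in both regions for 25 of the 45 (44 of all genes, 0.407%). Calls in the POA only were made for Ppp1r9a, Gnas, Blcap, Cobl and Eif2c2 (maternal) and Bcl2l1 (paternal), and none was made in the PFC only. Over all genes, 87 (0.804%) were called in the POA only and 11 (0.102%) in the PFC only. The POA-only calls take in Gramd1a and Lin37, whose POA F1r pools were low, and the count of POA calls moved widely with the pools and the fit, as given below. Of the 6 listed genes, Ppp1r9a alone also passed the test of the difference itself.

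The regional difference was not called for the near-completely imprinted genes given as examples. Meg3, a maternally expressed long noncoding RNA, was 99.2 ± 0.690% maternal in the POA and 98.5 ± 1.89% in the PFC (edgeR adjusted p = 0.974 for the difference). The paternally expressed genes Snrpn, of the small nuclear ribonucleoprotein, Peg3, a zinc finger protein, and the noncoding Peg13 had maternal shares of 0.276 ± 0.211, 0.503 ± 0.449 and 0.752 ± 0.674% in the POA, against 0.451 ± 0.360, 1.02 ± 1.22 and 0.972 ± 0.876% in the PFC, with edgeR adjusted p of 0.928, 0.972 and 0.925. Peg3 nonetheless had a higher total level in the POA (log2 1.95, SE 0.14, edgeR adjusted p = 2.10e-07). Grb10, an adaptor of insulin receptor signalling that is paternally expressed in neurons, was 1.24 ± 0.810% maternal in the POA and 4.74 ± 4.16% in the PFC (log2 -4.17, SE 1.81, edgeR adjusted p = 0.753), on only 28 to 50 reads per PFC pool. Igf2, listed as paternal, was called maternal in both regions, at 75.2 ± 10.5% in the POA and 72.8 ± 10.2% in the PFC.

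The list members in this paragraph and the next did not pass the test, with differences in mean share that ran from small to large. Gnas, which gives the stimulatory G protein alpha subunit and several imprinted upstream transcripts, was 58.8, 58.2, 59.2 and 60.1% maternal in POA pools and 20.1, 33.7, 66.7 and 77.2% in PFC pools. The POA was maternal in both crosses, while in the PFC the shares followed the strain, with the B6 copy higher in F1i and in F1r. The difference was 1.10 (SE 0.27, edgeR adjusted p = 0.0901), made of 1.94 in F1i and -0.84 in F1r. The window shown above, SNP 917, was 98.1% maternal in 882 POA reads and 75.0% in 8 PFC reads, whereas SNP 1909 in the 3′ UTR, with most reads, was 56.5% maternal in the POA and 49.0% in the PFC.

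Blcap, a small protein gene that surrounds the imprinted Nnat, was 72.1, 71.6, 72.5 and 62.7% maternal in POA pools and 59.8, 61.7, 54.9 and 50% in PFC pools. The groups did not overlap, and the log2 difference was 1.61 (SE 0.43, edgeR adjusted p = 0.167). Kcnk9, a leak potassium channel, was 98.8 ± 1.40% maternal in the POA and 84.7 ± 9.83% in the PFC at 1 SNP with 10 to 20 PFC reads per pool (edgeR adjusted p = 0.171). Its neighbour Trappc9, a vesicle tethering subunit, was 74.9 ± 6.62% maternal in the POA and 71.0 ± 9.07% in the PFC (edgeR adjusted p = 0.558). Ube3a, a ubiquitin ligase expressed from the maternal copy in neurons, was 60.9 ± 8.70% maternal in the POA and 43.3 ± 14.3% in the PFC (edgeR adjusted p = 0.334). Zrsr1, a splicing factor retrogene, was 0.624 ± 0.318% maternal in the POA and 3.52 ± 2.02% in the PFC (edgeR adjusted p = 0.144). Cobl, an actin nucleator, was 56.1 ± 2.75% maternal in the POA and 50.8 ± 3.61% in the PFC (edgeR adjusted p = 0.387), and Eif2c2, an Argonaute gene, was 70.3 ± 10.4% in the POA and 62.3 ± 26.8% in the PFC (edgeR adjusted p = 0.973). Bcl2l1, an inhibitor of cell death, was 40.2 ± 4.87% maternal in the POA and 41.9 ± 4.89% in the PFC (edgeR adjusted p = 0.973).

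The regional difference adds the crosses, and splitting it showed where it came from. Both crosses passed an unadjusted p of 0.05 in the same direction for 17 of the 31 called symbols (30 of all genes, 0.277%), only F1r did so for 12 and only F1i for 1, Cables1. In the remaining symbol, Lin37, both crosses passed in opposite directions. The 4 POA and the 4 PFC pools did not overlap for 12 of the 31 (132 of all genes, 1.22%).

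**Figure D4:**
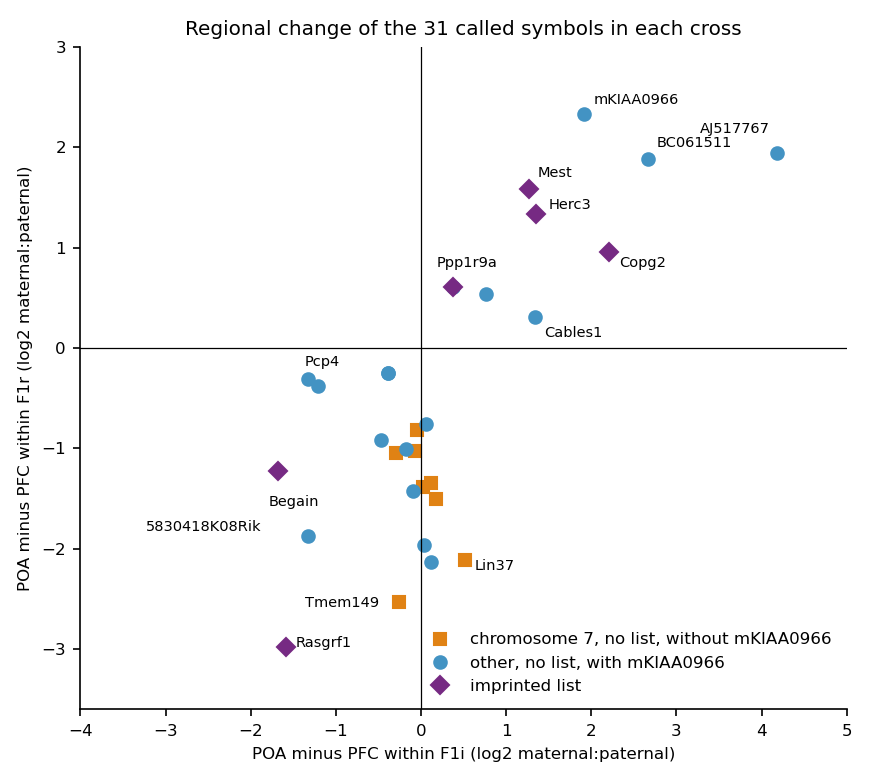
POA minus PFC change in log2 maternal:paternal ratio within F1r (vertical axis) against the same within F1i (horizontal axis) for the 31 called symbols. Squares are the chromosome 7 genes outside the imprinted lists, except mKIAA0966, which is drawn as a circle at 1.91 in F1i and 2.33 in F1r. Neurabin is hidden under Ppp1r9a. Imprinted list members lie away from both axes, for example Copg2 at 2.20 in F1i and 0.96 in F1r, whereas the squares lie nearer 0 in F1i than in F1r, where Clip3 is at -0.82 and Tmem149 at -2.53.

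Of the 12 symbols with a change in F1r alone, 7 lay on chromosome 7, as did Lin37. Capns1, the calpain small subunit, Clip3, Gpi1, the glycolytic glucose phosphate isomerase, Gramd1a, Lin37 and Tmem149 lie between 30 and 40 Mb, and Grlf1, a GTPase-activating protein gene, at chr7:17079822-17200342. In these 7 genes the POA F1i pools were 44.1 to 59.6% maternal, the POA F1r male pool 21.2 to 41.4% and the POA F1r female pool 15.3 to 28%. The PFC F1r pools were 46.3 to 65.6% maternal. Thus the F1r pools of the POA were low, the female lower than the male in each gene, and the other pools were nearer the even share, except for Lin37, at 36 and 37.7% in PFC F1i pools and 62.6 and 65.6% in PFC F1r pools. Gpi1, with 2144 to 4531 reads per POA pool, was 49.1, 51.1, 37.9 and 21.1% maternal in the POA, against 46.3, 49.9, 50.7 and 49.6% in the PFC (log2 -1.22, SE 0.25, edgeR adjusted p = 0.0188), a call lost in 11 of 23 alternatives. Without the POA F1r female pool the log2 differences were -0.60 for Gpi1, -0.70 for Capns1, -0.46 for Clip3, -0.84 for Gramd1a, -0.68 for Grlf1, -1.01 for Lin37 and -2.44 for Tmem149, and of these Capns1 alone kept its call (edgeR adjusted p = 0.00504). The other 6 calls were lost in 9 to 12 of 23 alternatives, and that of Capns1 in 10.

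Genes around those at 30 to 40 Mb moved the same way at the median, but genes around Grlf1 did not. The window from 10 to 20 Mb, which holds Grlf1, had a median log2 difference of -0.0095 over 46 genes, 24 of them lower in the POA. Its median maternal shares were 49.8 and 50% in the POA F1r male and female pools. Of 224 windows of 10 Mb with at least 10 placed genes, 3 had a median log2 difference beyond 0.4 either way, and all 3 were on chromosome 7. The window from 30 to 40 Mb had a median of -0.67 over 64 genes, 50 of them lower in the POA, with the called genes counted among them. Its median maternal shares were 43.3 and 38.5% in the POA F1r male and female pools. Those from 70 to 80 and from 100 to 110 Mb had medians of -0.55 and -0.47, with POA F1r female medians of 36.2 and 37.0%. In the other windows the median ran from -0.25 to 0.32. Without the POA F1r female pool, 6 genes in all were called more paternal in the POA, in place of 21, and without the POA F1r male pool 80 were. The part of these pools in the result was otherwise not tested.

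A further 4 of the 12 lay on chromosome 18. Of these, Pcdhga12, Pcdhga7 and Pcdhgb7 belong to the gamma protocadherin cluster of cell adhesion genes, whose members share their last exons, so that reads may be split among them. Pcdhga12 was 48.2, 43.0, 29.5 and 18.8% maternal in POA pools and 40, 47.2, 50.4 and 54.7% in PFC pools. Again the POA F1r pools were the lowest. Aldh7a1, an aldehyde dehydrogenase, Synj1, the synaptic phosphatase synaptojanin, on chromosome 16, and Rpl14, a ribosomal protein gene, on chromosome 9 had log2 differences of -1.52, -0.69 and -1.39, with calls lost in 9, 6 and 11 of 23 alternatives. Without the POA F1r female pool these were -0.93, -0.68 and -0.95 (edgeR adjusted p = 0.145, 0.0748 and 0.582). Brul4 and Brunol4 carry the same 4 SNPs and had a difference of -0.64, with calls lost in 12 and 13 of 23 alternatives, among them the removal of any 1 pool. Cables1 was more maternal in the POA (log2 1.65), with 41.7 and 48.7% in POA F1i pools against 23.5 and 26.4% in PFC F1i pools.

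Igsf5 and Pcp4, a calmodulin-binding peptide of neurons, lie on chromosome 16. Their 3 SNPs stand at the same spacing, with identical counts at 1, so their calls are not separate results. Pcp4 was 53.2 and 57.5% maternal in POA F1i pools and 23.1 and 24.6% in POA F1r pools, against 76.9 and 72.2% in PFC F1i and 31.8 and 27.0% in PFC F1r pools. The CAST copy was thus the higher in all 8 pools, and the POA was lower in maternal share in all 4 pairs. The log2 differences were -1.60 for Pcp4 (SE 0.20, edgeR adjusted p = 4.15e-05) and -1.63 for Igsf5 (SE 0.17, edgeR adjusted p = 2.22e-06), lost only when X-linked genes were included. Neither gene was called parentally biased within the POA or within the PFC by the rule that both crosses stand on the same side of 50%.

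The SNPs of 5830418K08Rik, a RefSeq synonym of Cep295, differed widely in maternal share. The gene was 86.4 ± 6.18% maternal in the POA and 94.7 ± 2.08% in the PFC (log2 -3.20, SE 0.49, edgeR adjusted p = 6.33e-04). SNP 4207, with most of the reads, was 99.8 ± 0.253% maternal in the POA and 99.6 ± 0.363% in the PFC. The other 9 SNPs were 54.2 ± 8.05% in the POA and 60.3 ± 9.30% in the PFC. SNP 4207 held 129 of 168, 105 of 206, 295 of 351 and 198 of 285 reads in POA pools. In PFC pools of the same order it held 374 of 480, 814 of 1010, 807 of 857 and 734 of 792. The summed share thus mixes parental bias with the weight of this SNP, and the call cannot tell them apart. With reads aligned to the genome the gene was 44.8 ± 4.78% maternal in the POA and 48.3 ± 6.78% in the PFC. On the deepest SNP alone the difference turned to 0.94, and the call was lost with robust estimation, with X-linked genes included and without the POA F1i female pool (log2 -2.23, edgeR adjusted p = 0.449).

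The embryonic day 15 whole brain, with 1 pool of 4 to 5 embryos per cross, gives a further level for the same SNPs, without replicates. Begain was 38.1% maternal in F1i (95% Wilson interval 33.7 to 42.6%) and 40.3% in F1r (35.8 to 45.0%). Herc3 was 53.9% (50.1 to 57.6%) in F1i and 60.1% (57.2 to 62.9%) in F1r. These values lie nearer to those of the adult PFC than of the adult POA. Copg2 was 65.6% (61.1 to 69.8%) in F1i and 78.6% (75.7 to 81.2%) in F1r, and Mest was 2.14% (1.48 to 3.10%) in F1i and 5.90% (4.45 to 7.78%) in F1r. Ppp1r9a was 52.2% (50.3 to 54.1%) in F1i and 52.0% (50.3 to 53.6%) in F1r. Inpp5f was 6.13% (4.97 to 7.54%) in F1i and 8.80% (7.92 to 9.78%) in F1r, while its 5′ part, mKIAA0966, was 37.5% (24.2 to 53.0%) in F1i and 48.2% (40.1 to 56.4%) in F1r. Grb10 was 64.3% (57.9 to 70.3%) in F1i and 74.6% (69.6 to 78.9%) in F1r, on the maternal side. The intervals cover counting error only, and age, dissection and pool differ from the adult samples together.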

How the data were processed

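RNA-seq libraries of random-primed cDNA were read for 36 cycles from RNA of integrity above 9, per the labels' protocols. The deposited tables hold raw read counts per SNP for the CAST and the B6 base, with technical replicates summed by the authors. Reads were aligned to UCSC transcripts of mm9 (Novoalign and mm9, per the submitters' processing notes), and use of strand is not given in the sources used here. The SNP bases were taken from the authors' SNP calls and placed on NCBIM37 with GENCODE annotation. A 36-base read can cover neighbouring SNPs, so summed SNPs repeat reads.

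A SNP listed more than once kept the listing with most reads. Each gene was represented by its most deeply covered transcript, over whose common SNPs reads were summed. The CAST and B6 counts of the 8 pools (16 columns) were fitted with edgeR 4.0.16 in R 4.3.3, with a term for each pool, allele, allele by region, allele by cross, and allele by cross by region, and with Benjamini-Hochberg adjustment over all 10823 genes. The fit had 4 residual and 22.7 prior degrees of freedom. The scripts were tested on simulated data. Total levels were tested with edgeR on both alleles summed, with cross and sex as covariates. DESeq2 1.42.0 and limma 3.58.1 (0.5 added to each allele count) were alternatives. Gene names were looked up in RefSeq tables.

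Genes are named if called between regions (31), if among the 12 list members of smallest p, if among the 10 unlisted genes of smallest p that moved one way in all 4 pairs, if an example of a domain (10), or if called in 1 region only (6). The result of 1 called gene is not reported here. The members and lists were chosen with earlier results of these data known. Depth was 3385306 to 7234528 informative reads per pool. PCR reads without molecular identifiers are not independent molecules, so intervals cover counting error only.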

Additional observations from a re-analysis of the deposited data

Results flagged for a closer look

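The parental bias differed between the POA and the PFC by a test of the difference itself for the 31 called symbols, of which 30 are given here. Those more maternal in the POA had log2 differences of 6.12 (AJ517767), 4.56 (BC061511), 4.24 (mKIAA0966), 3.16 (Copg2), 2.85 (Mest), 2.69 (Herc3), 1.65 (Cables1), 1.30 (Tspan15) and 0.99 (Ppp1r9a and Neurabin). Those more paternal in the POA had -4.57 (Rasgrf1), -3.20 (5830418K08Rik), -2.91 (Begain), -2.79 (Tmem149), -2.02 (Pcdhga7), -1.93 (Pcdhga12), -1.63 (Igsf5), -1.60 (Pcp4 and Lin37), -1.52 (Aldh7a1), -1.39 (Rpl14), -1.37 (Gramd1a), -1.33 (Capns1), -1.22 (Gpi1), -1.18 (Pcdhgb7), -1.09 (Grlf1), -0.86 (Clip3), -0.69 (Synj1) and -0.64 (Brul4 and Brunol4). The value of 5830418K08Rik cannot be told apart from the weight of its SNP 4207, as given above. Lin37 moved in opposite directions in the crosses, by 0.51 in F1i and -2.11 in F1r. Without the POA F1r female pool the differences of Capns1, Clip3, Gpi1, Gramd1a, Grlf1 and Lin37 were smaller, at -0.46 to -1.01.

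Among 94 groups of 4 pools, 4 had a pool far from its group, where chance gives about 1 in 20. The PFC F1r male pool was at 83.05% maternal for Copg2. The PFC F1i female pool was at 0.5% for Zrsr1. The POA F1r female pool was at 62.7% for Blcap, and the PFC F1i male pool was at 70% for Kcnk9, on 10 reads.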

How the results depend on the processing

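The count of 31 regional differences was 25 to 44 under other scaling, read minimum, robust estimation, SNP choice, sex term and repeat handling, 2 (1 more maternal, 1 more paternal) with 313 X-linked genes included, where the prior degrees of freedom fell to 3.31, 9 by DESeq2 (4 and 5, with 112 genes at an unadjusted p under 0.05) and 19 by limma. Genes more paternal in the POA, 21 in the reported fit, were 36 with SNPs at least 36 bases apart, 35 with the deepest SNP and 9 by limma. Calls within the POA, 131 in the reported fit, were 52 with X-linked genes and 60 by DESeq2. List calls, 6 in the reported fit, were 2 with X-linked genes. Leaving out 1 pool gave 11 to 92 genes in all: 17, 11, 92 and 16 without the F1i male, F1i female, F1r male and F1r female pool of the POA, and 18, 16, 18 and 11 without those of the PFC. Of these, 5 to 12 were more maternal and 5 to 80 more paternal, 5 to 7 were on the lists, and POA calls were 62 to 152 and PFC calls 45 to 57. Begain and Herc3 kept their calls in all 23 alternatives, with edgeR, limma or DESeq2 adjusted p up to 0.00212 for Begain and 0.0196 for Herc3.

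Differences that turned in sign, with the cause not tested, were 5830418K08Rik (0.94), Synj1 (0.079), Meg3 (-1.89), Peg3 (0.99) and Inpp5f (-1.65) with the deepest SNP, Meg3 with all SNPs (-0.16), with spaced SNPs (-0.64) and without the PFC F1i male pool (-0.41), Nap1l5 without that pool (0.56) and Bcl2l1 without the PFC F1i female pool (0.14). Over the fits that left out 1 pool, these ran from -0.41 to 1.13 (Meg3), -3.27 to 0.56 (Nap1l5) and -0.54 to 0.14 (Bcl2l1). In the genome-aligned tables, where a gene's range takes in other genes, the share difference was -15.8 percentage points for Herc3, -3.09 for Copg2 and -2.16 for Trappc9, and for the first 2 it was 19.4 and 14.7 at the placed SNPs of these transcripts alone. This last choice and the handling of repeated listings were made after seeing the data. Pools of like cross and sex did not deviate together between regions (r = 0.00834 in F1i and -0.00201 in F1r across 9192 genes, which are not independent), and with those pairs as a replicate block 33 genes were called, 27 of the 31 among them, with Brul4, Brunol4, Rpl14 and Tspan15 not called.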

Other observations

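Of the listed imprinted genes, 6 had SNPs in the POA table alone. Asb4, a subunit of a ubiquitin ligase complex found in hypothalamic neurons, was 92.4 to 95.0% maternal over 31 SNPs in the 4 POA pools, and Calcr, the calcitonin receptor, was 97.1 to 99.3% maternal over 8 SNPs. Dlk1, a transmembrane relative of Notch ligands, was 0.662 to 1.38% maternal over 4 SNPs, in 364 to 755 reads per pool. The POA F1r male pool stood highest for Magel2, a partner of ubiquitin ligases on endosomes, at 13%, and for Rtl1, a retrotransposon-derived gene, at 25.9%, on 54 and 27 reads. Th, the enzyme of dopamine synthesis, listed as maternal, was 41.8 to 54.5% maternal.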
